A study of Homo sapiens with 6 samples.

Results

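The 10 genes described here are annexins other than ANXA2, the annexin that S100A10 binds: ANXA1, ANXA3, ANXA4, ANXA5, ANXA6, ANXA7, ANXA9, ANXA10, ANXA11 and ANXA13. They were chosen by gene symbol among the 15669 genes with a symbol on the array, and each had 1 probe set. Their RNA was measured in the human line MDA-MB-231, derived from a triple-negative breast cancer. A lentivirus had brought in shS100A10_1 or shS100A10_5, which are short hairpin RNAs against S100A10, or the control hairpin shNCT, and each of the 3 groups had 2 arrays. All of them, controls included, grew with 10% serum and 2.5 µg/ml of puromycin, which keeps only cells that hold the vector. The labels do not say whether the cells of a group were a pool or 1 clone, nor whether the arrays of a group stand for different cultures. The p-values therefore reflect nothing but the spread among these arrays, which may be technical.

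Annexins are cytosolic proteins that bind phospholipids with negative charge when calcium rises, through a conserved core of repeats. Each member has its own N-terminal arm, and in several of them a small EF-hand protein docks there. ANXA2 holds a pair of S100A10 molecules in this way, ANXA1 pairs with S100A11, and ANXA11 binds S100A6 and PDCD6. The family acts in exocytosis, endosome sorting and the patching of torn plasma membrane, and ANXA1 and ANXA5 also act outside the cell. Knockdown of S100A10 lowers the RNA of an ANXA2 partner, so the other members show whether RNA of the rest of the family moves with it.

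The hairpins acted on their target. S100A10 intensity was 1969 and 1545 with shS100A10_1 and 13565 and 9460 with shS100A10_5, against 88860 and 92938 with shNCT. Its log2 changes against the control were -5.70 and -3.004 (SE 0.21 each; limma, adjusted p = 1.71e-06 and 0.000442). ANXA2 intensity was 135969 and 141995 with shS100A10_1, 143648 and 132146 with shS100A10_5 and 135978 and 150603 with shNCT, so the groups overlapped. Median intensity lay between 232 and 238 on the 6 arrays, and replicate 2 of shS100A10_5 stood apart on the first principal component, which held 45.2% of the variance, at 41.1 against 18.7 for replicate 1 and at most -10.0 for the other arrays. Of 7 measured genes typical of this mesenchymal line, VIM, CD44, CAV1, AXL, FOSL1 and MMP14 had log2 intensities between 13.03 and 16.65 on all arrays and FN1 between 9.04 and 9.61. Of 9 luminal genes measured, the keratins KRT8, KRT18 and KRT19 were also bright, between 12.64 and 15.64, EPCAM lay between 9.87 and 10.76, and GATA3, FOXA1, TFF1, AGR2 and E-cadherin (CDH1) lay between 3.15 and 7.39, with CDH1, which the line lacks, between 3.15 and 4.05. By the limma test set out below, AGR2 rose with each hairpin (of all probe sets 0.1% and 1.43% rose), as did LYZ among 9 leukocyte markers. TFF1 was 0.88 higher with shS100A10_5 than under the other hairpin (limma, adjusted p = 0.0489; 2.91% of all probe sets were called in that comparison), a call that was lost with any 1 array left out (adjusted p between 0.0545 and 0.211). Summed intensity over the luminal markers was 66618 and 68051 with shS100A10_1, 76483 and 63398 with shS100A10_5 and 73824 and 72815 with shNCT. All probe sets had intensities above 0 on every array, so a value above 0 does not show that a marker of either list was expressed. The pan-leukocyte gene PTPRC lay between 5.11 and 5.83 on the log2 scale, under the median probe set.

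Against the control hairpin, none of the 10 annexins passed the test with either hairpin. The test was limma on log2 intensities over all 16965 probe sets, with Benjamini-Hochberg adjusted p under 0.05. With shS100A10_1 it called 0 of 10 annexins against 0.189% of all probe sets, and with shS100A10_5 0 of 10 against 3.18%. At an unadjusted p under 0.05 there was 1 annexin with shS100A10_1 (ANXA10, 8.44% of all probe sets) and 2 with shS100A10_5 (ANXA6 and ANXA10, 21% of all). For the mean of both hairpins there were 0 of 10 at the adjusted threshold (0.307% of all) and 0 at the unadjusted one (13.7% of all). The median annexin change was 0.08 on the log2 scale with shS100A10_1, where the median over all probe sets was 0.0056, and 0.09 with shS100A10_5, where it was 0.025. In bulk RNA such a level cannot tell fewer cells of a type from less RNA per cell.

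The size of change that these arrays leave possible was read from the 95% interval of each difference. With shS100A10_1 the interval lay within 2-fold of the control, less than 1 either way on the log2 scale, for 9 of 10 annexins, as for 94.3% of all probe sets. The exception was ANXA13, whose interval ran from -0.16 to 1.03. With shS100A10_5 it lay within 2-fold for 9 of 10, as for 85.7% of all, and the exception was ANXA10. For the mean of both hairpins it did so for all 10, as for 96.2% of all. SEs of the 10 annexins ran from 0.16 to 0.27, around the median of 0.19 for all probe sets.

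**Figure D1:**
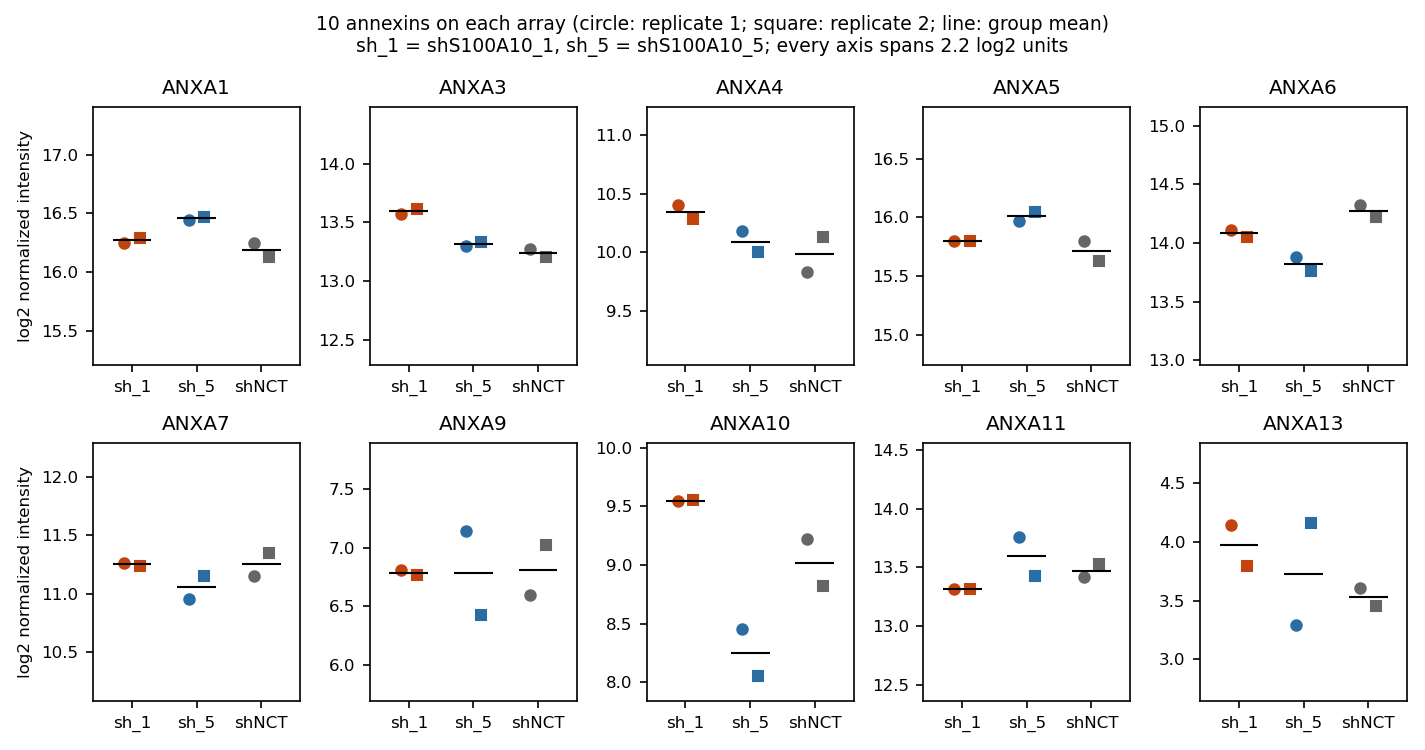
Log2 normalized intensity of each of the 10 annexins on each array, by group on the horizontal axis (shS100A10_1, shS100A10_5, shNCT); circles are replicate 1, squares replicate 2 and lines group means, and the axes have the same length but different origins, since probe sets cannot be compared in level. ANXA10 has its shS100A10_1 arrays at 9.54 and 9.55, its shS100A10_5 arrays at 8.45 and 8.05 and its controls between them, while the arrays within a group are furthest apart for ANXA13 and ANXA9.

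ANXA10 was the 1 annexin past the threshold in any comparison, and that was between the hairpins. It encodes an atypical annexin that has lost most of the family's calcium-binding sites and is best known from the stomach lining. Its intensity was 746 and 751 with shS100A10_1, 350 and 265 with shS100A10_5, and 596 and 451 with shNCT. Both arrays of shS100A10_1 thus lay above the controls and both of shS100A10_5 below them, with no overlap between any of the 3 groups. The mean log2 level was 9.55 ± 0.007 with shS100A10_1, 8.25 ± 0.28 with shS100A10_5 and 9.02 ± 0.29 with shNCT (SD, n = 2 each).

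Between the hairpins ANXA10 was lower with shS100A10_5 by 1.30 on the log2 scale (difference -1.30, 95% interval -1.75 to -0.84, SE 0.21; limma, adjusted p = 0.0142), which is 2.46-fold. This made 1 of 10 annexins called in that comparison, against 2.91% of all probe sets called and 1.48% called lower, and 1 of 10 at an unadjusted p under 0.05 against 19.9%. Neither hairpin's distance from the control, which lay between them, was past the threshold. ANXA10 with shS100A10_1 stood 0.53 above the control (95% interval 0.07 to 0.99; limma, adjusted p = 0.508), and with shS100A10_5 it had a change of -0.77 (95% interval -1.22 to -0.31; limma, adjusted p = 0.0724). The mean of both hairpins gave -0.12 (SE 0.18; limma, adjusted p = 0.809). The order of ANXA10 levels, shS100A10_1 over shNCT over shS100A10_5, was not the order of S100A10 itself, which was lowest with shS100A10_1 and highest with shNCT. The summed intensity of the 9 leukocyte markers had the same order as ANXA10, with 8358 and 7897 for shS100A10_1, 6361 and 4965 for shS100A10_5 and 7004 and 6767 for shNCT. Most of that sum came from CD68, a lysosomal protein made by many cell types, whose difference between the hairpins was -0.59 (SE 0.19; limma, adjusted p = 0.118), and the part of these markers in the ANXA10 result was not tested.

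The control arrays do not enter the size of the ANXA10 difference between the hairpins, only the estimate of its spread. Leaving out 1 of them gave the same fit as the hairpins alone, in which the difference was called. Of the hairpin arrays, the difference was still called only without replicate 1 of shS100A10_5. It was lost without shS100A10_1 replicate 1 (-1.30, limma adjusted p = 0.0602), without shS100A10_1 replicate 2 (-1.29, adjusted p = 0.0523) and without shS100A10_5 replicate 2 (-1.10, adjusted p = 0.115). Over the 6 fits the difference ran from -1.50 to -1.10. Against the control, the ANXA10 change with shS100A10_5 passed the threshold under 3 of 17 alternatives, without dim probe sets (limma, adjusted p = 0.0459), with 16 added to each intensity (0.0454) and with an intensity trend in the variance (0.0354), and over all 17 its adjusted p ran from 0.0354 to 0.312.

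The promoters of ANXA10 and of ANXA1 and ANXA5 are shown for their composition, which the choice of the 10 annexins did not use. Composition did decide which to print beside ANXA10. ANXA1 is the other member without a CG dinucleotide in this window, and ANXA5 the one of highest GC content. Of the 10 annexins 9, all but ANXA13, had entries among the RefSeq promoters of build GRCh38.p14, 13 entries in all, and the 250 bases before each start were read. ANXA10 lies on the plus strand of chromosome 4, at chr4:168092287-168092536, ANXA1 on the plus strand at chr9:73151615-73151864, and ANXA5 on the minus strand at chr4:121696981-121697230. All 3 are printed 5′ to 3′ toward the gene's start, with capitals at matches, on either strand, to 4 short motifs. These were TATAAA, the core of the TATA box, then CCAAT, that of the box of the same name, then GGGCGG, the GC box, and lastly TGANTCA, the site of AP-1. No 2 matches overlapped.
ANXA10: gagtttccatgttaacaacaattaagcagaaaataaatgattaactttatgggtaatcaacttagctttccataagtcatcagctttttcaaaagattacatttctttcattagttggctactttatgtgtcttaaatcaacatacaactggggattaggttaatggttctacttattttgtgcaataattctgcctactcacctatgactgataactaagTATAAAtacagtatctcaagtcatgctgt
ANXA1: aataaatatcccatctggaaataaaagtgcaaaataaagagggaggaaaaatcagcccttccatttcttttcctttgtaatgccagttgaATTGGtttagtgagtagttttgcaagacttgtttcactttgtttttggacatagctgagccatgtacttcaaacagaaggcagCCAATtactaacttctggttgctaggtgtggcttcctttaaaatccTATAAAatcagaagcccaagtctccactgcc
ANXA5: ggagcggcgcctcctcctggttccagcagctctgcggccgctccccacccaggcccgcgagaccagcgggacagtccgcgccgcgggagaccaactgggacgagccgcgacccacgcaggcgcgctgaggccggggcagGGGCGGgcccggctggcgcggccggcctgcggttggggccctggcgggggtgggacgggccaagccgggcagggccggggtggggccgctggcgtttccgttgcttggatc

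ANXA10 and ANXA1 are alike in this window: neither holds a CG dinucleotide, which is so for 6.06% of the 35116 promoters in the table, and both have a TATAAA, 29 bases before the start in ANXA10 and 31 in ANXA1. A TATAAA was also in 1 of 3 ANXA11 entries, and 10.7% of all promoters held one on either strand. GC content was 31.2% for ANXA10 and 38.4% for ANXA1, against a median of 58% for all promoters. ANXA5 is the other kind, with 78.8% GC, 31 CG dinucleotides and a GC box 111 bases before the start, a motif that 42.6% of all promoters held. The remaining entries, for ANXA3, ANXA4, ANXA6, ANXA7, ANXA9 and ANXA11, had between 4 and 36 CG dinucleotides, and none of the 13 held an AP-1 match, against 6.57% of all. ANXA1 did not share the pattern of ANXA10 across the groups: it was 0.19 higher with shS100A10_5 than with shS100A10_1 (95% interval -0.18 to 0.55; limma, adjusted p = 0.584).

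The genes whose levels most resembled ANXA10 across the 6 arrays were DDRGK1, a factor of the protein modifier UFM1 at the endoplasmic reticulum, SERPINB1, an inhibitor of neutrophil proteases, and TMBIM4, a Golgi membrane protein. Their Pearson correlations with it were 0.997, 0.995 and 0.995, the highest among 7962 genes at or above the median level, of which 307 reached 0.9. With 6 arrays in 3 groups such values are a description only. So are their differences between the hairpins, shS100A10_5 minus shS100A10_1, since genes chosen for likeness to ANXA10 share its contrast: -0.55 for DDRGK1, -0.83 for SERPINB1 and -0.89 for TMBIM4 on the log2 scale.

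ANXA6, the longest member, which carries its core of repeats in duplicate and acts in cholesterol and endosome traffic, was lower on every hairpin array than on either control array. Its intensity was 17734 and 17010 with shS100A10_1 and 15105 and 13870 with shS100A10_5, against 20508 and 19062 with shNCT. The shS100A10_5 arrays were the lowest of the 6. The log2 changes were -0.19 with shS100A10_1 (95% interval -0.56 to 0.19; limma, adjusted p = 0.842) and -0.45 with shS100A10_5 (95% interval -0.82 to -0.08; limma, adjusted p = 0.159), and these comparisons share their controls. For the mean of both hairpins the change was -0.32 (95% interval -0.64 to 0.004; limma, adjusted p = 0.369). The change with shS100A10_5 passed the threshold with an intensity trend in the variance (limma, adjusted p = 0.0316).

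ANXA1 and ANXA5, the annexins best known outside the cell, were brightest with shS100A10_5. ANXA1, an anti-inflammatory protein that signals through formyl peptide receptors and is induced by glucocorticoids in many cells, had 77925 and 80306 with shS100A10_1, 89069 and 90915 with shS100A10_5, and 77912 and 71780 with shNCT. All 4 hairpin arrays were above both controls, although the closest pair, 77925 and 77912, was nearly equal. The log2 changes were 0.08 (95% interval -0.29 to 0.45; limma, adjusted p = 0.946) and 0.27 (95% interval -0.10 to 0.64; limma, adjusted p = 0.397).

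ANXA5, which coats exposed phosphatidylserine and serves as the reagent for dying cells, had 56943 and 57139 with shS100A10_1, 64308 and 67808 with shS100A10_5, and 56960 and 50505 with shNCT. Its shS100A10_5 arrays lay above all others, and those of shS100A10_1 overlapped the controls. The changes were 0.09 and 0.30 (SE 0.17 each; limma, adjusted p = 0.938 and 0.343), and the interval for shS100A10_5 ran from -0.07 to 0.67.

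ANXA3 and ANXA4 were highest with shS100A10_1. ANXA3, an annexin abundant in neutrophils, had 12187 and 12558 with shS100A10_1, 10087 and 10317 with shS100A10_5, and 9887 and 9454 with shNCT, with no overlap between any of the groups. Its log2 changes were 0.36 (95% interval -0.01 to 0.72; limma, adjusted p = 0.603) with shS100A10_1 and 0.08 (95% interval -0.29 to 0.44; limma, adjusted p = 0.833) with shS100A10_5. ANXA4, an epithelial annexin, had 1357 and 1244 with shS100A10_1, 1162 and 1024 with shS100A10_5, and 910 and 1124 with shNCT. Its arrays overlapped between shS100A10_5 and the control, and its changes were 0.36 and 0.11 (SE 0.18 each; limma, adjusted p = 0.645 and 0.780).

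ANXA7 and ANXA11, both on chromosome 10, have long N-terminal arms and bind the EF-hand proteins sorcin (SRI) and PDCD6, and ANXA11 also ties RNA granules to lysosomes. ANXA7 had 2463 and 2408 with shS100A10_1, 1992 and 2279 with shS100A10_5, and 2273 and 2611 with shNCT, and each hairpin overlapped the control. ANXA11 had 10163 and 10179 with shS100A10_1, 13867 and 11020 with shS100A10_5, and 10921 and 11805 with shNCT. The log2 changes of ANXA7 were -0.00032 and -0.19 (SE 0.17 each) and those of ANXA11 -0.16 and 0.12 (SE 0.18 each), with 95% intervals of all 4 between -0.58 and 0.52. Without replicate 1 of shS100A10_5 the ANXA11 change with that hairpin was -0.04 (limma, adjusted p = 0.901).

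ANXA9 and ANXA13 had the lowest mean levels of the 10 annexins, and their arrays were scattered. ANXA9, at a mean log2 of 6.79, was above the lower quartile of all probe set means. ANXA9, whose calcium sites are thought not to work, had 112 and 109 with shS100A10_1, 142 and 85.8 with shS100A10_5, and 96.8 and 130 with shNCT, so its groups overlapped throughout. ANXA13, an annexin of gut epithelium, had 17.7 and 13.9 with shS100A10_1, 9.79 and 17.9 with shS100A10_5, and 12.2 and 10.98 with shNCT. Its mean log2 of 3.74 was below 4.98, the lower quartile of all probe set means, and with no detection calls it was not settled whether its RNA was measured at all. The 2 arrays of shS100A10_5 differed more from each other than the groups did, and the ANXA13 changes were 0.44 with shS100A10_1 and 0.20 with shS100A10_5 (SE 0.27 each; limma, adjusted p = 0.726 and 0.725). Leaving out shS100A10_5 replicate 2 gave a change of -0.24 for ANXA13 with that hairpin, and one of 0.34 for ANXA9, where both arrays gave -0.02.

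**Figure D2:**
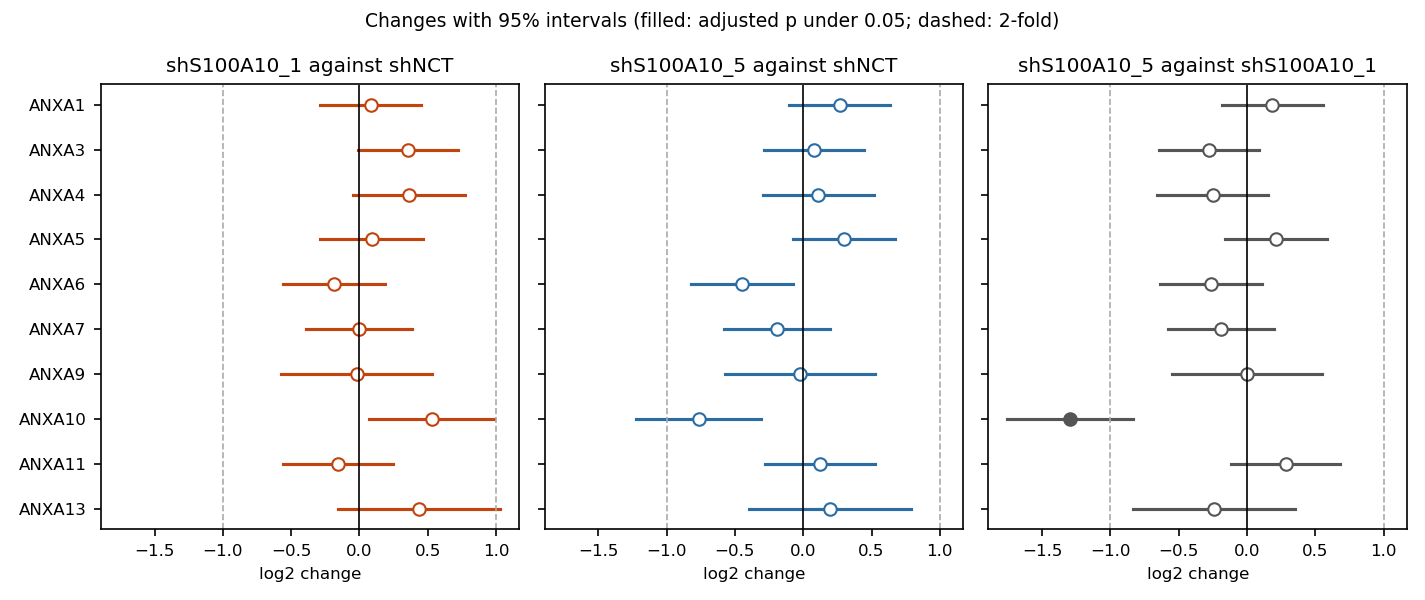
Log2 change (horizontal axis) of each annexin with shS100A10_1 and with shS100A10_5 against shNCT and of shS100A10_5 against shS100A10_1; circles are the estimates, lines their 95% intervals, filled circles those with an adjusted p under 0.05 and dashed lines a 2-fold change. The 1 filled circle is ANXA10 between the hairpins, at -1.30.

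Between the hairpins 9 of the 10 annexins had a 95% interval within 2-fold, as did 86.5% of all probe sets, and ANXA10 was the exception. The median difference over the 10 was -0.22, shS100A10_5 minus shS100A10_1, against 0.016 over all probe sets. The 2 arrays of one hairpin did not overlap those of the other for 8 of 10 annexins, against 49% of all probe sets, with ANXA1, ANXA5 and ANXA11 higher with shS100A10_5 and ANXA3, ANXA4, ANXA6, ANXA7 and ANXA10 lower. Hairpin and control arrays did not overlap for 7 of 10 with shS100A10_1 against 42.4% of all, and for 5 of 10 with shS100A10_5 against 50.5%. All 4 hairpin arrays lay on 1 side of both controls for ANXA1, ANXA3 and ANXA6, 3 of 10, against 19.5% of all. With 2 arrays a group these counts carry no test.

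The EF-hand proteins that dock on annexins were measured for all 10 listed. Apart from S100A10 none of the other 9 was past the threshold in any comparison (limma). Of all probe sets 0.189% were called with shS100A10_1, 3.18% with shS100A10_5, 2.91% between the hairpins and 0.307% for the mean of both. At an unadjusted p under 0.05 there was 0 of 9 with shS100A10_1 (8.44% of all probe sets) and 1 of 9 with shS100A10_5 (21% of all). That 1 was PEF1, an EF-hand protein that pairs with PDCD6. Its changes were -0.47 and -0.74 (SE 0.25 each; limma, adjusted p = 0.678 and 0.133). S100A11, the ANXA1 partner, had changes of 0.08 and 0.23 (limma, adjusted p = 0.950 and 0.493), and S100A1 changes of 0.34 and 0.09. The formyl peptide receptor genes, through which ANXA1 signals, gave 0 of 3 past the threshold with either hairpin (limma), against 0.189% and 3.18% of all probe sets. At an unadjusted p under 0.05 there was 1 of 3, FPR3, with shS100A10_1, against 8.44% of all probe sets (-0.58, adjusted p = 0.412), and its change with shS100A10_5 was -0.22. FPR2 had changes of 0.15 and 0.35, and FPR1 of -0.13 and -0.16. FPR2 and FPR3 were dim, with group mean log2 levels between 4.27 and 4.85, below the lower quartile of 4.98. With no detection calls it was not settled whether RNA of these 2 receptors was measured at all. ANXA8, an annexin outside the 10, had log2 changes of 0.43 with shS100A10_1 and -0.12 with shS100A10_5 (SE 0.22 for either; limma, adjusted p = 0.641 and 0.790).

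Among 21 measured genes of plasma membrane repair, a process in which several annexins act, 0 passed the threshold with shS100A10_1 (limma), against 0.189% of all probe sets. With shS100A10_5 1 of the 21 fell (limma), where 1.75% of all probe sets fell. The median changes were 0.017 and -0.09, and at an unadjusted p under 0.05 there were 3 higher and 1 lower with shS100A10_1, against 8.44% of all probe sets either way, and 4 each way with shS100A10_5, against 21%. The one that fell was EHD4, an ATPase that shapes endosome tubules. Its intensity was 4026 and 4349 with shS100A10_1, 2557 and 2324 with shS100A10_5, and 4278 and 4217 with shNCT. The shS100A10_5 arrays were the lowest, with a log2 change of -0.80 against the control and -0.78 against shS100A10_1 (SE 0.17 each; limma, adjusted p = 0.0360 and 0.0400). The first of these was lost without shS100A10_5 replicate 2 (-0.73, adjusted p = 0.170), shNCT replicate 1 (-0.79, 0.160) or shNCT replicate 2 (-0.81, 0.208). With 1 array left out, the difference between the hairpins held only without shS100A10_5 replicate 1. Array weights ended both calls (limma, adjusted p = 0.0607 and 0.0658). A fit of only the hairpins ended that of the difference (0.0727), and leaving out 1 shNCT array gave this same fit. SMPD1, the acid sphingomyelinase, had changes of 0.54 and 0.67 (limma, adjusted p = 0.365 and 0.0619), and SNAP23, a fusion protein, 0.61 and 0.52 (adjusted p = 0.308 and 0.120).

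Of 13 measured genes that move or bind phosphatidylserine, the lipid annexins attach to, 0 passed with shS100A10_1 and 1 fell with shS100A10_5 (limma), with medians of 0.015 and 0.27, where 0.189% and 3.18% of all probe sets were called and 1.75% fell with shS100A10_5. At an unadjusted p under 0.05 there were 1 higher and 0 lower with shS100A10_1 (8.44% of all probe sets either way) and 5 higher and 1 lower with shS100A10_5 (21% of all). The one that fell was GAS6, a secreted protein that bridges this lipid to the receptor AXL. GAS6 intensity was 2781 and 2696 with shS100A10_1, 1507 and 1030 with shS100A10_5, and 2353 and 2304 with shNCT. As with ANXA10, the shS100A10_1 arrays lay above the controls and the shS100A10_5 arrays below them. GAS6 changed by -0.90 with shS100A10_5 (SE 0.20; limma, adjusted p = 0.0452) and stood 0.23 above the control with shS100A10_1 (adjusted p = 0.833), and the difference between the hairpins was -1.14 (SE 0.20; limma, adjusted p = 0.0211). The fall against the control was lost without shS100A10_5 replicate 2 (-0.63, adjusted p = 0.192), shNCT replicate 1 (-0.89, 0.170) or shNCT replicate 2 (-0.92, 0.216), and the difference without shS100A10_1 replicate 1 (-1.11, 0.0980), shS100A10_1 replicate 2 (-1.16, 0.0712) or shS100A10_5 replicate 2 (-0.86, 0.114). Quantile normalization (0.0545), median centring (0.0530) and array weights (0.0638) also ended the fall against the control. PROS1, another bridging protein, had changes of 0.29 and 0.97 (limma, adjusted p = 0.809 and 0.0505), the scramblase gene PLSCR4 -0.0017 and 1.11 (adjusted p = 0.0634 for shS100A10_5), and TMEM30A, a flippase subunit, 0.40 and 0.55.

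The phospholipase A2 and eicosanoid enzymes, a pathway that ANXA1 was described as restraining, had 1 of 13 measured members higher with shS100A10_1 (limma). Of all probe sets 0.1% were higher there. With shS100A10_5 0 of the 13 were past the threshold (limma), against 3.18% of all probe sets. At an unadjusted p under 0.05 there were 3 of 13, all higher, with shS100A10_1 (PTGES, PLA2G7 and PLAAT3; 8.44% of all probe sets) and 1 with shS100A10_5 (PTGES; 21% of all). PTGES, which makes prostaglandin E2, had 2704 and 2836 with shS100A10_1, 2037 and 1788 with shS100A10_5, and 1328 and 1087 with shNCT. All 4 hairpin arrays were above both controls. PTGES rose by 1.20 with shS100A10_1 (SE 0.18; limma, adjusted p = 0.0316), had a change of 0.67 with shS100A10_5 (adjusted p = 0.0738), and rose by 0.94 for the mean of both (SE 0.16; adjusted p = 0.0462), where 0.236% of all probe sets rose. The rise with shS100A10_1 was lost with any 1 of the 6 arrays left out, at changes of 1.06 to 1.35 and limma adjusted p between 0.0964 and 0.331, and so was that for the mean, between 0.0732 and 0.480. Quantile normalization also ended both (limma, adjusted p = 0.0516 and 0.0599). A fit of only the groups compared, the same fit as leaving out 1 shS100A10_5 array, ended that with shS100A10_1 (0.0964). PLA2G7 had changes of 0.63 and 0.35, and PLAAT3, a phospholipase of adipocytes, 0.50 and 0.29 (limma, adjusted p = 0.401 and 0.353). PLA2G7 was dim, with group mean log2 levels between 3.32 and 3.95, below the lower quartile of 4.98. As for ANXA13, it was not settled whether its RNA was measured.

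None of 8 measured genes of the glucocorticoid response passed with either hairpin (limma). Of all probe sets 0.189% were called with shS100A10_1 and 3.18% with shS100A10_5. The list medians were -0.06 for shS100A10_1 and 0.31 for shS100A10_5, against 0.0056 and 0.025 over all probe sets. At an unadjusted p under 0.05 there were 0 of 8 with shS100A10_1, against 8.44% of all probe sets, and 3 of 8 with shS100A10_5, against 21%. The phosphatase gene DUSP1 had changes of 0.35 and 0.52, HSD11B1, which regenerates cortisol, -0.04 and 0.54, and ZFP36, which destabilizes inflammatory mRNAs, -0.03 and 0.37, with limma adjusted p between 0.108 and 0.236 for shS100A10_5.

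**Figure D3:**
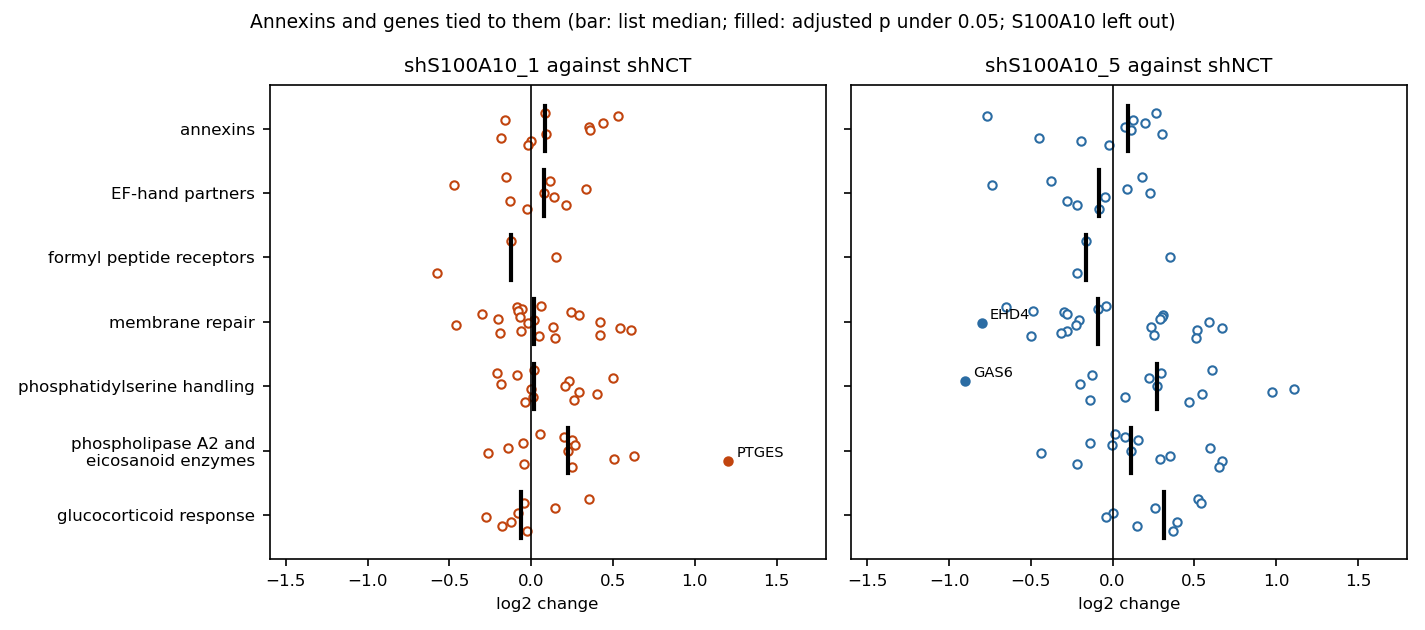
Log2 change (horizontal axis) with shS100A10_1 and with shS100A10_5 against shNCT of the annexins and of 6 lists of genes tied to them; each circle is a gene, bars are list medians, filled circles have an adjusted p under 0.05, and S100A10 is left out of the EF-hand partners. Only PTGES on the shS100A10_1 side and EHD4 and GAS6 on the shS100A10_5 side are filled.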

How the data were processed

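Per the labels' protocols, total RNA was biotin-labelled and hybridized to cartridge arrays that cover whole transcripts. The deposited table holds 1 normalized intensity per probe set on each of 6 arrays, made with Transcriptome Analysis Console, per the submitters' processing notes. For its version, background correction and normalization, the sources used here name none. The log2 of each deposited intensity ended at 5 decimals (largest deviation 7.13e-10). Of 16965 probe sets 15674 had 1 gene symbol and 1291 none, and all 15674 matched RefSeq (GRCh38.p14) by gene identifier. The brightest probe set stood for a gene with several.

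Log2 intensities were fitted with a mean per group to all 6 arrays in limma 3.58.1 (R 4.3.3; 3 residual and 7.16 prior degrees of freedom), two-sided, with Benjamini-Hochberg adjustment over all probe sets and a threshold of 0.05. Intervals are 95% and cover 1 comparison each. The fit was tested on simulated data. The number of arrays limits the precision. Labels gave no batch, and no scan date or detection call was used. Named were the 10 annexins, ANXA2, S100A10, list members past the threshold or with the 3 lowest p of their list when both hairpins were averaged, and the 3 genes most correlated with ANXA10; S100A11, ANXA8 and the marker genes were added after their values were seen. Members, lists and this rule were chosen with earlier results of these data known, and the printed promoters after their values were seen.

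Alternatives were quantile normalization, median centring, no dim probe sets, 16 added to each intensity, an intensity trend, robust hyperparameters, a block for the replicate number, array weights, only the groups compared, the mean of a gene's probe sets, 1 probe set per gene, and each array left out.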

Additional observations from a re-analysis of the deposited data

Results flagged for a closer look

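ANXA10 differed between the hairpins under the same control, with a log2 difference of -1.30, shS100A10_5 minus shS100A10_1 (limma, adjusted p = 0.0142), and its arrays lay on opposite sides of shNCT. Of the target, the listed genes and the markers described, S100A10 (2.70, limma adjusted p = 0.00102) and EHD4 (-0.78, 0.0400) also had a called difference between the hairpins. So did GAS6 (-1.14, limma adjusted p = 0.0211) and TFF1 (0.88, 0.0489). TFF1 was dim, with a mean log2 of 4.31, below the lower quartile of 4.98, and its call was lost with any 1 array left out. The calls of ANXA10, EHD4 and GAS6 were each lost without some of the arrays, as described above. Of all probe sets 2.91% were called between the hairpins.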

How the results depend on the processing

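No annexin was called against the control with shS100A10_1, or for the mean of both hairpins, under any of the 17 and 16 alternatives; the mean was not run with only the groups compared, since it uses all groups. With shS100A10_5 the count of annexins was 0 in 14 of 17, 1 without dim probe sets or with 16 added, and 2 with an intensity trend. Between the hairpins it was 1 in 14 of 17, which were not all separate fits, and 0 without some of the hairpin arrays. Annexin medians with 1 array left out ran from 0.073 to 0.158 for shS100A10_1 and from -0.012 to 0.15 for shS100A10_5. Between the hairpins they ran from -0.23 to -0.12, and with 16 added the median was -0.15. For the mean of both hairpins the median was 0.078 in the main fit. Without dim probe sets, which left out ANXA13, that median was -0.018. The count of all probe sets called ran from 8 (without shNCT replicate 2) to 98 (intensity trend) against 32 for shS100A10_1, from 3 (without shS100A10_5 replicate 2) to 1454 (trend) against 539 for shS100A10_5, from 7 (without shS100A10_5 replicate 2) to 1144 (trend) against 494 between them and from 6 (without shNCT replicate 1) to 218 (trend) against 52 for the mean.

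Of the list counts for shS100A10_5 against shNCT, membrane repair gave 2 without dim probe sets or with 16 added, 5 with the trend, 0 with array weights and 0 to 2 with 1 array left out. Phosphatidylserine handling gave 0 with quantile normalization or array weights, 2 with 1 probe set per gene, 3 without dim probe sets, with 16 added, with the trend or with only the groups compared, and 0 to 3 with 1 array left out. Eicosanoid enzymes gave 1 without dim probe sets, with 16 added or with the trend, and glucocorticoid genes 1 with 16 added or the trend. Between the hairpins, membrane repair gave 3 with the trend, 0 with array weights or only the groups compared, and 0 to 1 with 1 array left out, and phosphatidylserine handling 2 without dim probe sets or with the trend, and 0 to 1. The eicosanoid count of 1 for shS100A10_1 was 0 with quantile normalization, only the groups compared or any 1 array left out, and for the mean 0 with quantile normalization or any 1 array left out. Membrane repair for the mean was 1 with the trend. The cause of these shifts was not tested.

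Replicate numbers were taken from the titles. The correlation of replicate differences between groups was 0.19 for the hairpins, -0.022 for shS100A10_1 with shNCT and -0.035 for shS100A10_5 with shNCT. Whether samples of the same number share more than that number was not tested. With the replicate number as a block, 625 probe sets were called for shS100A10_5, 33 for shS100A10_1, 561 between them and 60 for the mean; phosphatidylserine handling gave 2 for shS100A10_5, and the annexin counts were 0, 0, 1 and 0.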
